A study of Mus musculus with 6 samples.

Results

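The translation initiation factors (Eif genes) and elongation factors (Eef genes) were compared between WT and AMPK KO mice in CD4 T cells. Every gene symbol beginning with Eif1 to Eif6, Eef1 or Eef2 was taken, except the Eif2ak kinases, which gave 60 genes of the 23282 lines listed. AMPK KO cells came from C57BL/6 mice with floxed Prkaa1 alleles (Prkaa1fl/fl), the gene of the AMPK alpha 1 catalytic subunit, that also carried CD4Cre, a Cre recombinase driven by the CD4 promoter. WT cells came from Prkaa1fl/fl mice without Cre, so both groups carried the floxed alleles. The study's methods give female mice of 6 to 8 weeks for both groups. CD4 T cells from spleen and lymph nodes, separated with magnetic beads, rested for 1 h in RPMI-1640 and were then stimulated with anti-CD3/CD28 antibody at 2 µg/mL, for 24 h by the sample labels and 6 h by the methods. Each group held 3 samples. RNA was read by QuantSeq, which sequences the 3′ ends of transcripts, so 1 stretch near the end of each transcript stands for the gene.

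Protein synthesis begins when a small ribosomal subunit carrying eIF2 and the initiator tRNA is brought to the capped end of an mRNA by the eIF4 factors and eIF3, and scans to a start codon. Elongation then proceeds with eEF1A, which delivers aminoacyl-tRNA, and eEF2, which moves the ribosome along. T cells enlarge this machinery after their antigen receptor is engaged. AMPK, which senses a shortage of energy, is known to restrain translation through eEF2 kinase, which inhibits eEF2, and through mTORC1, whose targets include the eIF4E-binding proteins. These are mostly changes of protein phosphorylation, which RNA levels do not measure.

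Depth ranged from 9574902 to 10168247 reads per WT library and from 10515313 to 11185396 per AMPK KO library. Reads on Rn45s, the ribosomal RNA precursor, made up 20.7% to 24.9% of the WT libraries and 8.48% to 10.8% of the AMPK KO libraries. Prkaa1 itself had values of 4.64, 5.24 and 4.86 in WT and 4.08, 4.72 and 4.67 in AMPK KO (limma, adjusted p = 0.357). Only the transcript end is read, and the deleted exon is not given in the sources used here, so this gene does not check the labels. Xist, transcribed from the inactive X chromosome of female cells, had 8 to 32 reads per WT library and 1998 to 2876 per AMPK KO library, and for the Y-linked Ddx3y these were 3158 to 3462 and 1296 to 1840. Ddx3y reads in every library, and the near absence of Xist in WT, go against the female sex given in the methods, which bears on every X-linked and Y-linked value below. All 10 macrophage markers had a higher mean in AMPK KO, 8 past the threshold, and their sum was 620 to 710 CPM in WT and 1090 to 2093 in AMPK KO. Of 9 T cell markers, Cd3e, Cd3g and Cd28 fell and Thy1 rose, and their sum was 2769 to 2993 in WT and 2116 to 2667 in AMPK KO. Cd4 itself had log2 values of 6.72, 6.83 and 6.53 in WT and 6.55, 6.31 and 6.14 in AMPK KO (limma adjusted p = 0.224). Transcripts of CD8 T cells were also present in these CD4 T cell libraries, Cd8a with 6.48, 6.71 and 6.86 in WT and 7.04, 6.95 and 7.08 in AMPK KO, and Cd8b1 with 7.17, 7.61 and 7.58 in WT and 7.58, 7.98 and 7.92 in AMPK KO. For the other lists the sums in WT and in AMPK KO were 231 to 305 and 321 to 376 for CD8 T cell markers, 274 to 293 and 252 to 325 for B cells, 212 to 277 and 563 to 568 for plasma cells, 788 to 902 and 513 to 756 for neutrophils, 25.5 to 37.1 and 46.2 to 57.4 for NK cells, 3988 to 4594 and 2886 to 5566 for erythroid cells, and 1970 to 2323 and 1451 to 1836 for T cell activation genes. Jchain carried most of the difference in the plasma cell sum, the rest of that list summing to 155 to 213 in WT and 171 to 237 in AMPK KO. Of the 6 plasma cell markers tested, 5 had a higher mean in AMPK KO, and only Jchain passed the threshold. Mzb1 rose by 0.75 (limma adjusted p = 0.0566) and Xbp1 by 0.96 (0.101) on the log2 scale, while Irf4 had a fold change of -0.35. Without Egr1 the activation genes summed to 1104 to 1371 and 966 to 1299, and of this list Cd44 and Tfrc rose while Egr1 and Nfkbid fell. The part of these differences in the results below was not tested, and in bulk RNA fewer cells of a type and less RNA per cell cannot be told apart.

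Most translation factor transcripts were present in both groups at similar levels. Of the 60 genes, 57 had a 6-sample mean of 1 or more on the deposited log2 scale (log2 of CPM plus 1, where CPM are reads scaled to a common library total by TMM) and were tested. Eif4e1b and Eef1a2 had 0 reads in every library, and Eif3j1 had 1 read, in AMPK KO replicate 1. The mean was higher in AMPK KO for 35 genes and lower for 22, that is 61.4% higher against 51.2% of all 11279 genes tested. With each library scaled to its reads off Rn45s these were 30 and 27, against 46.2% of all genes with a higher mean. The median log2 fold change was 0.11 over the 57 genes and 0.015 over all genes tested, and the median of its size without the sign was 0.32 and 0.31. By role, the median fold change was 0.38 for the elongation factors with Eef1e1 counted among them (6 of 6 positive), 0.39 for eIF5A and eIF6 (3 of 3), 0.51 for the enzymes acting on elongation factors (2 of 2), 0.17 for the cap-side factors and 0.08 for the scanning factors. It was -0.37 for the repressors of eIF4E, -0.28 for eIF2B, -0.05 for eIF3 and -0.02 for the eIF2 list. That list held the subunit genes Eif2s1, Eif2s2, Eif2s3x and Eif2s3y (0.34, 0.15, 0.70 and -1.06). It also held Eif2a and Eif2d (-0.40 and -0.20), which are not subunits of the complex.

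Past an adjusted p of 0.05 in limma there were 2 genes: Eif3m rose and Eif2s3y fell. Over all genes tested, 2.54% passed as higher and 3.1% as lower, so 1 of 57 in each direction was no larger a share than the background. An unadjusted p under 0.05 was reached by 17 of the 57 (12 higher, 5 lower), against 21.3% of all genes. All 3 AMPK KO samples lay above all 3 WT samples for 13 of the 57 genes, against 11.6% of all genes tested, and below them for 6, against 14%. With each library rescaled to its reads off Rn45s, the groups did not overlap for 7 genes with higher and 8 with lower AMPK KO values (9.11% and 17.3% of all genes with that scaling), and the past-threshold genes were 0 higher and 1 lower (2.01% and 4.23% of all genes). After quantile normalization they were 3 higher and 1 lower (2.59% and 3.05% of all genes). Single libraries moved the count of 2, which was 0 without WT replicate 1, WT replicate 3 or AMPK KO replicate 1, 1 without AMPK KO replicate 3, 4 without WT replicate 2 and 8 without AMPK KO replicate 2. The share of all genes past the threshold moved with it, being 1.12%, 1.18%, 1.54%, 4.07%, 6.46% and 11% with these libraries left out in the same order. With 3 samples against 3, an exact permutation test of a single gene cannot go below p = 0.1, and where separate animals per sample are not named the p-values measure the spread between these samples only.

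**Figure D1:**
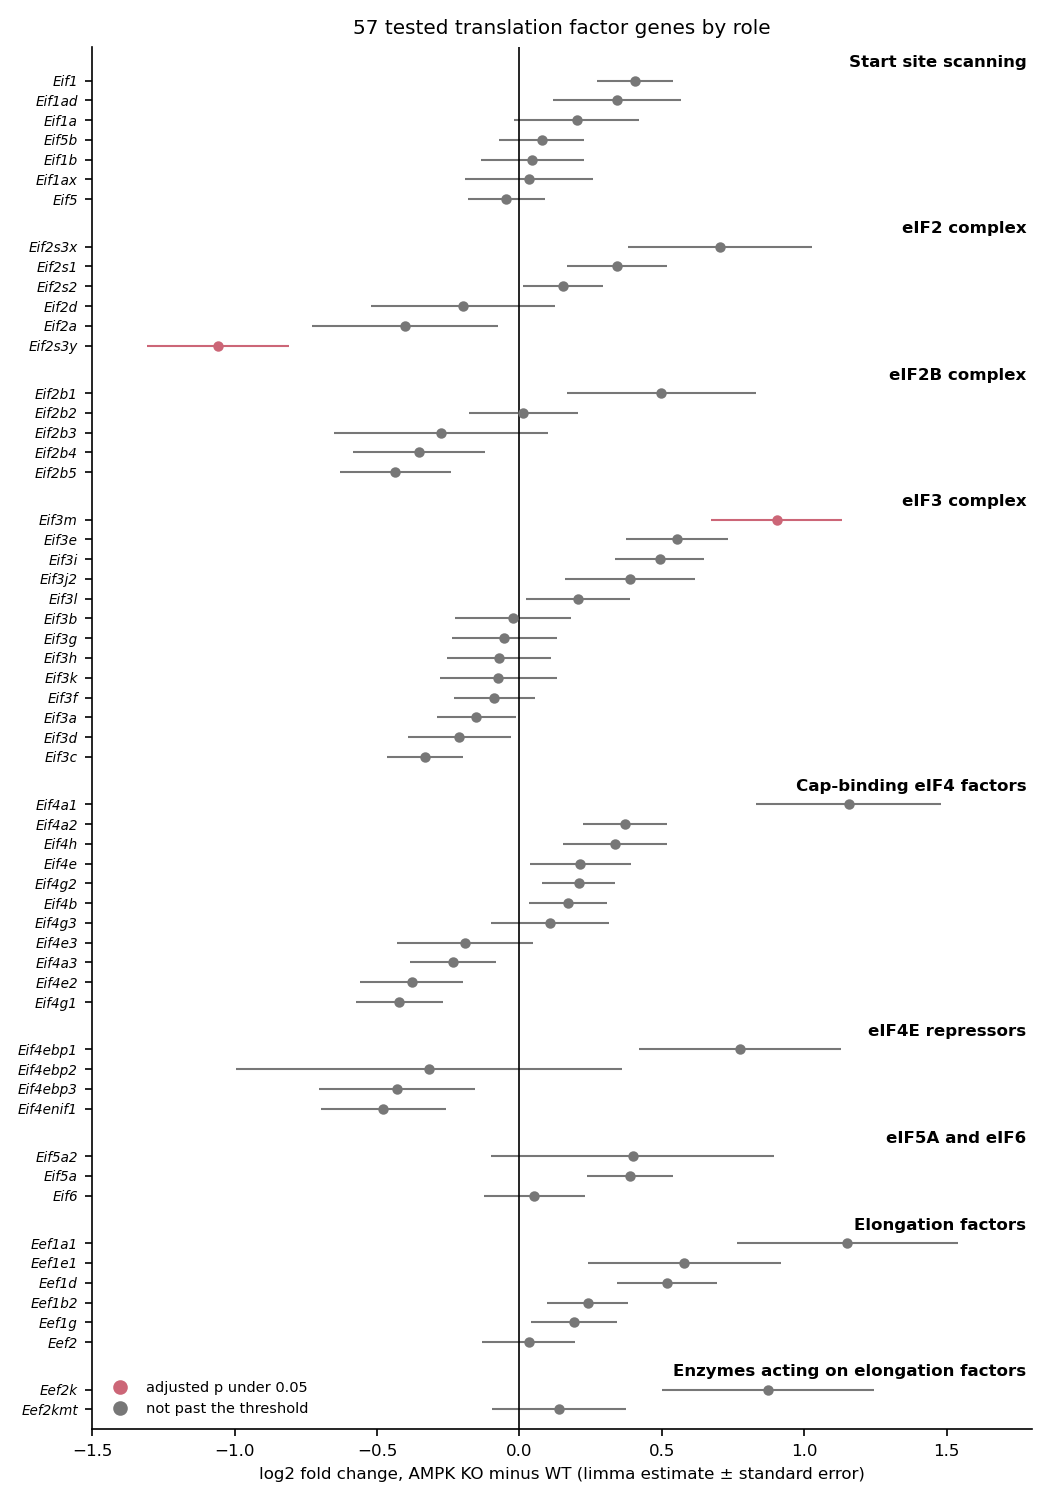
Log2 fold change, AMPK KO minus WT, with its standard error from limma, for the 57 tested genes grouped by role. Only Eif3m (0.90) and Eif2s3y (-1.06) are drawn as past the adjusted threshold, and the 6 genes listed as elongation factors, Eef1e1 among them, all lie at or right of 0.

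The start regions of 5 genes that the results turn on are shown for orientation, each from 30 bases before to 30 bases after the RefSeq start, on the gene's strand in build GRCm38. Many mRNAs of the translation machinery begin with a run of pyrimidines (the TOP motif) through which mTORC1 signalling acts on their translation, and capitals mark the longest run of C and T lying within 10 bases before to 20 after the start.
Eef1a1: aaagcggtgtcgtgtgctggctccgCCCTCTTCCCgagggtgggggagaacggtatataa
Eif2s3x: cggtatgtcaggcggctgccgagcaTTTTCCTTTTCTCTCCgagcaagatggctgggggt
Eif2s3y: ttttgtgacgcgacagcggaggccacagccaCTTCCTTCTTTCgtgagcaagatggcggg
Eif3m: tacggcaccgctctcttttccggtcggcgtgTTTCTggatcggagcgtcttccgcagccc
Eif4a1: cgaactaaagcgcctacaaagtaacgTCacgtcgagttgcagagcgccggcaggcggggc

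These windows lie at chr9:78481695-78481754 (minus strand), chrX:94212622-94212681 (minus), chrY:1010565-1010624 (plus), chr2:105016998-105017057 (minus) and chr11:69672394-69672453 (minus) for Eef1a1, Eif2s3x, Eif2s3y, Eif3m and Eif4a1 respectively. The run measured 10, 16, 12, 5 and 2 bases in these genes, in that order. Of the 60 genes, 46 matched a RefSeq start window, counted at the first start listed, and only the stretch from 10 bases before to 20 after the start was searched. A run of at least 8 C or T on the gene's strand was present there in 8 of them, 17.4%, against 11.2% of all 27025 genes with a window and 34.4% of 64 ribosomal protein genes with one. The windows of Eif2s3x and Eif2s3y shared a stretch of 12 bases, GAGCAAGATGGC, just after their pyrimidine runs. Genes with a run went both ways in their fold changes, from 1.15 for Eef1a1 to -1.06 for Eif2s3y. Eif3m and Eif4a1, among the largest positive fold changes, had none of 8 bases in the searched stretch. The printed Eif3m window does hold a longer run, ctctcttttcc, which begins upstream of that stretch. A run is a description of the letters and not a shown site, and whether it lies at the start of the mRNA was not tested. In the Eef1a1 window the letters tatataa follow the marked run.

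The factors that find the start codon had small differences. Eif1, whose protein keeps the scanning ribosome open until a start codon is met, had values of 8.87, 9.14 and 8.99 in WT and 9.39, 9.38 and 9.45 in AMPK KO. All AMPK KO samples lay above all WT samples, with a log2 fold change of 0.41 ± 0.13 (SE, limma adjusted p = 0.0898; 0.0272 without AMPK KO replicate 2), and 13 annotated near-identical stretches of Eif1 elsewhere in the genome, none of them covering its last 300 bases, leave the assignment of some reads uncertain. The autosomal Eif1a and the X-linked Eif1ax encode forms of eIF1A, a partner of eIF1. Eif1a had log2 values of 5.02, 5.78 and 5.36 in WT and 5.60, 5.36 and 5.80 in AMPK KO, and Eif1ax had 6.20, 5.56 and 5.96 in WT and 5.80, 6.40 and 5.62 in AMPK KO. The groups overlapped for both genes (log2 fold change 0.20, adjusted p = 0.644, and 0.03, adjusted p = 0.956), and WT replicate 2 was the highest WT sample for Eif1a and the lowest for Eif1ax. Eif5, the GTPase activator of eIF2, and Eif5b, which joins the ribosomal subunits, had fold changes of -0.05 and 0.08.

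The eIF2 complex carries the initiator tRNA, and its gamma subunit is encoded by an X-linked and a Y-linked gene, Eif2s3x and Eif2s3y. Eif2s3y (chrY:1010543-1028847, plus strand) had log2 values of 4.86, 5.41 and 5.01 in WT and 3.81, 3.94 and 4.36 in AMPK KO. It fell by 1.06 ± 0.25 on the log2 scale (SE, limma adjusted p = 0.0245), that is to 0.480 of the WT level, on 154 to 416 reads per library. Its adjusted p was 0.0748 without WT replicate 1, 0.07 without WT replicate 2, 0.0941 without WT replicate 3 and 0.115 without AMPK KO replicate 1. Beside it, the Y-linked Ddx3y fell by 1.36 and Xist rose by 6.13 on the log2 scale, and the sex of the animals behind the libraries and the genotype cannot be told apart here.

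Eif2s3x (chrX:94188707-94212862, minus strand) had log2 values of 4.38, 5.19 and 4.55 in WT and 5.71, 4.56 and 5.97 in AMPK KO. AMPK KO replicate 2 lay among the WT samples, and the log2 fold change of 0.70 ± 0.32 was not past the threshold (SE, limma adjusted p = 0.225; 0.00717 without AMPK KO replicate 2). Summed on the linear scale, with no scaling by length because only transcript ends are read, both genes gave 47.9, 77.2 and 53.7 CPM in WT and 64.3, 37.0 and 81.1 in AMPK KO. The means of this sum were 59.6 ± 15.5 in WT and 60.8 ± 22.3 in AMPK KO (SD, n = 3 each, two-sided exact permutation p = 1). The share of the sum read from Eif2s3y was 58.6%, 53.9% and 58.1% in WT and 20.2%, 38.8% and 24.1% in AMPK KO, so the groups did not overlap (exact permutation p = 0.1, the smallest possible). AMPK KO replicate 2 had both the lowest sum and, within its group, the highest share from Eif2s3y.

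**Figure D2:**
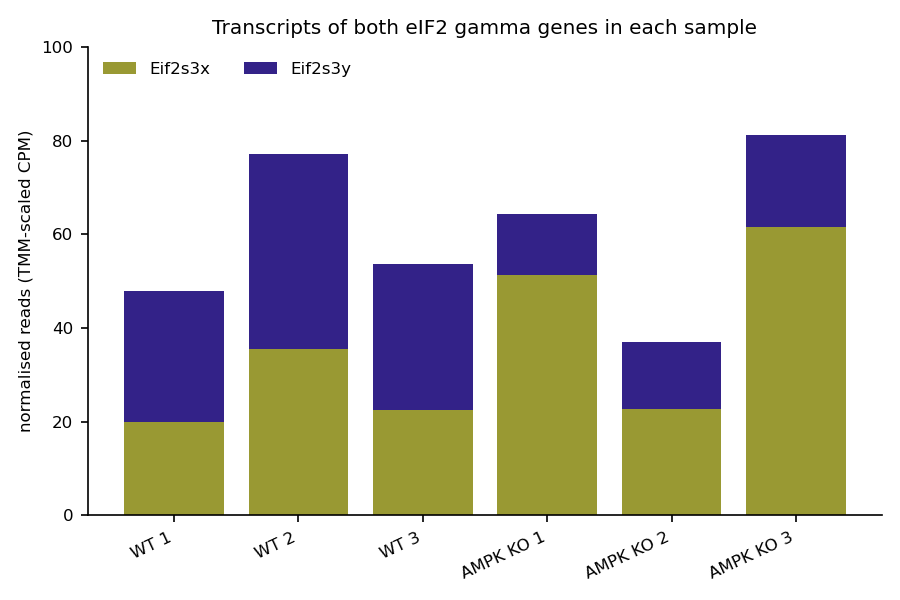
CPM (normalised reads, TMM-scaled) of Eif2s3x and Eif2s3y, the genes of the eIF2 gamma subunit, stacked for each of the 6 samples (linear axis from 0). The summed bars run from 36.96 to 81.14 and overlap between groups, while Eif2s3y makes up 53.89% to 58.6% of each WT bar and 20.21% to 38.79% of each AMPK KO bar.

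The other subunits of eIF2 are shared by both sexes. Eif2s1 encodes the alpha subunit, whose phosphorylation halts initiation under stress, and had values of 5.63, 5.88 and 5.92 in WT and 6.22, 5.95 and 6.29 in AMPK KO. All AMPK KO samples were above all WT samples, by a small margin for replicate 2, with a log2 fold change of 0.34 ± 0.18 (SE, limma adjusted p = 0.278). Eif2s2, of the beta subunit, had a fold change of 0.15 (adjusted p = 0.569). Eif2a and Eif2d, which serve initiation without the eIF2 complex, had fold changes of -0.40 and -0.20 with overlapping groups.

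eIF2B reloads eIF2 with GTP and is the factor that phosphorylated eIF2 blocks. Of its 5 genes, Eif2b3, Eif2b4 and Eif2b5 had lower means in AMPK KO and Eif2b1 and Eif2b2 higher ones, and the median fold change was -0.28. Eif2b5, of the catalytic epsilon subunit, had values of 5.60, 5.52 and 5.57 in WT and 4.89, 5.36 and 5.14 in AMPK KO. The groups did not overlap, the WT samples lying within 0.1 of each other, but the log2 fold change of -0.44 ± 0.19 did not pass the threshold (SE, limma adjusted p = 0.212). Eif2b1 had the opposite sign, 0.50, with overlapping groups on 70 to 273 reads.

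The eIF3 complex, a scaffold of many subunits on the small ribosomal subunit, held the only gene that rose. Eif3m (chr2:104999656-105017080, minus strand) had values of 5.40, 6.14 and 5.40 in WT and 6.62, 6.16 and 6.87 in AMPK KO. The groups met closely, WT replicate 2 lying just under AMPK KO replicate 2, while the other 4 samples were far apart. The log2 fold change was 0.90 ± 0.23 (SE, limma adjusted p = 0.0339), a 1.87-fold difference on 364 to 1379 reads. It did not pass without WT replicate 1 (adjusted p = 0.181), WT replicate 3 (0.174), AMPK KO replicate 1 (0.136) or AMPK KO replicate 3 (0.0847), nor when scaled to the reads outside Rn45s (0.0556), which differed between the groups. Eif3m overlaps Ccdc73 on the opposite strand and has an annotated pseudogene, Gm7658, that nearly copies its end, and whether counting used strand is not stated in the sources used here.

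The remaining tested eIF3 subunits did not all share its direction, since 8 of the other 12 had lower means in AMPK KO and their median fold change was -0.06. Eif3i and Eif3e were nearest to Eif3m in direction. Eif3i had values of 7.14, 7.32 and 7.04 in WT and 7.54, 7.92 and 7.50 in AMPK KO, with no overlap (log2 fold change 0.49 ± 0.16, SE, limma adjusted p = 0.0799; 0.0485 after quantile normalization). Eif3e had 7.54, 8.17 and 7.67 in WT and 8.49, 8.05 and 8.51 in AMPK KO, where AMPK KO replicate 2 fell below WT replicate 2 (0.55 ± 0.18, adjusted p = 0.0875; 0.0239 without WT replicate 2 and 0.0085 without AMPK KO replicate 2). In the other direction, Eif3c, of a core subunit, had the tightest WT values of the complex, 8.13, 8.12 and 8.15, against 7.82, 7.89 and 7.69 in AMPK KO. The groups did not overlap, with a log2 fold change of -0.33 ± 0.13 (SE, limma adjusted p = 0.162). Eif3a, the largest subunit, had 10.05, 10.04 and 9.98 in WT and 9.97, 9.68 and 9.97 in AMPK KO, also without overlap but separated by only 0.003 at the nearest pair (fold change -0.15, adjusted p = 0.573). The others ran from Eif3d at -0.21 to Eif3j2 at 0.39, all with overlapping groups, and the end of Eif3j2 is a near copy of that of Eif3j1, so the reads of this pair are uncertain.

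Among the factors that bind the cap and open the mRNA, the RNA helicase Eif4a1 had the largest fold change of all 57 genes. Its values were 6.18, 7.33 and 6.17 in WT and 7.94, 6.91 and 8.29 in AMPK KO. WT replicate 2 lay above AMPK KO replicate 2, so the groups overlapped, and the log2 fold change of 1.16 ± 0.33 (SE) gave a limma adjusted p of 0.0512. It passed without WT replicate 2 (0.00894), without AMPK KO replicate 2 (0.000869), after quantile normalization (0.0491) and with a correction for the GC content of transcript ends (0.0379). With a robust estimate of the spread the adjusted p was 0.279. Eif4a2, the closely related second helicase, had 7.11, 7.31 and 7.09 in WT and 7.51, 7.41 and 7.70 in AMPK KO. These did not overlap, with a fold change of 0.37 ± 0.15 (SE, limma adjusted p = 0.157). Snora81 and Snord2, small nucleolar RNAs listed separately, lie within Eif4a2 on the same strand, and Snora81 fell by 1.88 on the log2 scale (adjusted p = 0.000395).

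The scaffold Eif4g1, which joins the helicase to the cap-binding protein, went the other way. It had values of 7.98, 7.87 and 7.76 in WT and 7.58, 7.17 and 7.59 in AMPK KO, with no overlap (log2 fold change -0.42 ± 0.15, SE, limma adjusted p = 0.123). Eif4g2, a related scaffold used without the cap-binding protein, had 9.10, 9.19 and 9.05 in WT and 9.31, 9.28 and 9.38 in AMPK KO. Here too the groups did not overlap, although the difference was only 0.21 (adjusted p = 0.379). Eif4e, the cap-binding protein itself, had 6.01, 6.13 and 6.15 in WT and 6.25, 6.63 and 6.06 in AMPK KO, with AMPK KO replicate 3 among the WT samples (0.21 ± 0.18, adjusted p = 0.527). Eif4b, a helper of the helicase, was separated by 0.17 on average without overlap (adjusted p = 0.506). The remaining cap-side genes, Eif4e2, Eif4e3, Eif4g3, Eif4a3 and Eif4h, ran from -0.38 to 0.34 with overlapping groups. An annotated gene, Gm5580, nearly copies the end of Eif4a3.

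**Figure D3:**
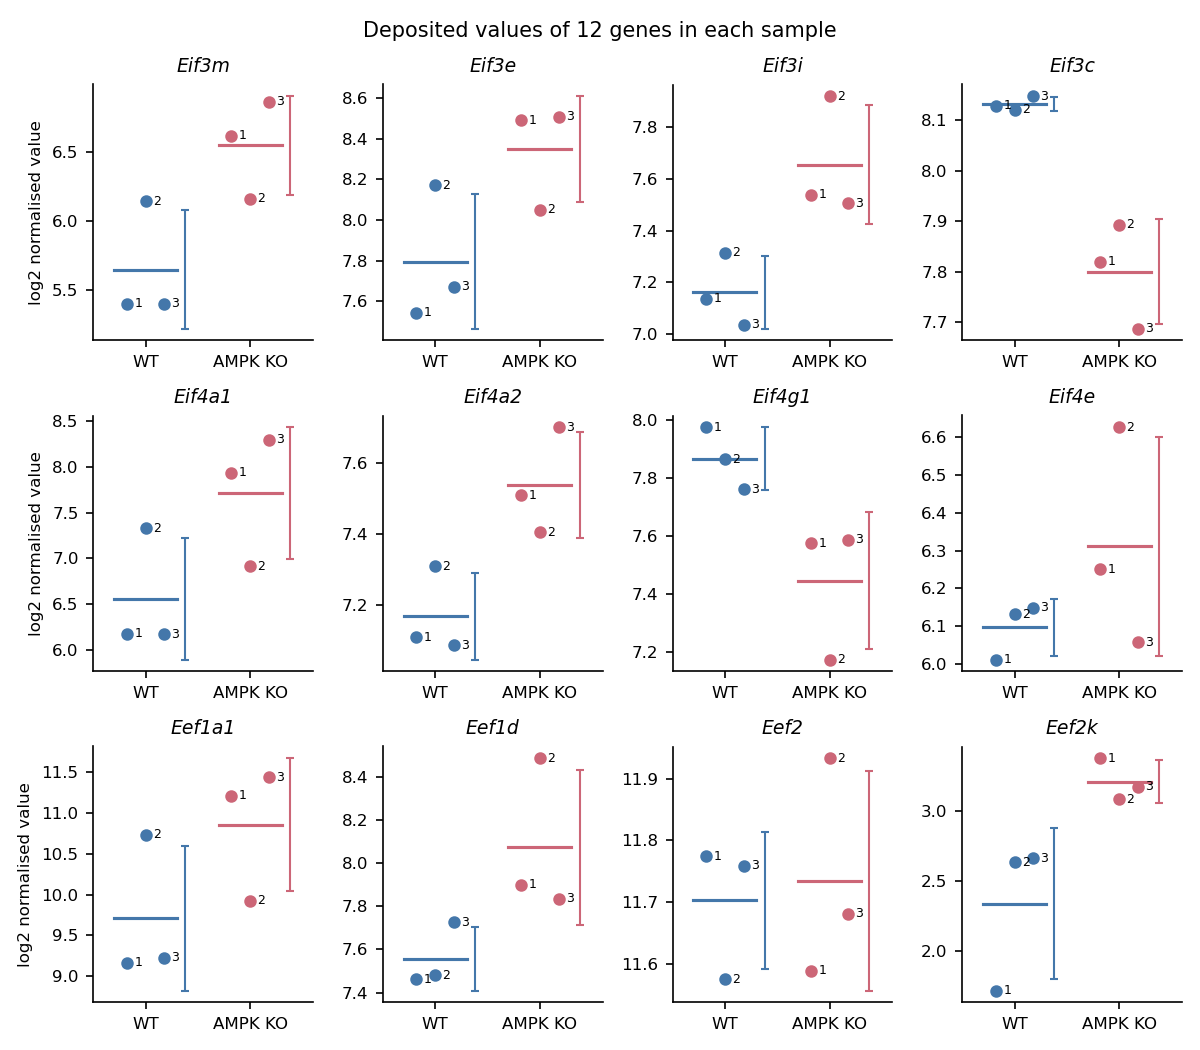
Deposited log2 values of 12 translation factor genes in each sample (points, numbered by replicate), with the group mean (horizontal line) and its SD (bar, n = 3). The vertical axis of each panel has its own range, so that Eif4a1 and Eef1a1 span more than 2 units and Eif3c less than 1, and the groups overlap for Eif4a1, Eef1a1, Eif3e, Eif4e and Eef2.

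The proteins that hold eIF4E back lie downstream of mTORC1. Eif4ebp1 had values of 2.58, 2.96 and 2.13 in WT and 3.07, 3.27 and 3.66 in AMPK KO. All AMPK KO samples were above all WT samples, on 30 to 138 reads, but the log2 fold change of 0.77 ± 0.35 was not past the threshold (SE, limma adjusted p = 0.224). Eif4ebp2 was the most variable of the 57 genes, with 3.58, 5.71 and 3.76 in WT and 4.80, 2.03 and 5.26 in AMPK KO. Its spread within groups (SD 1.49) exceeded the difference between them (-0.32, adjusted p = 0.832), which turned to 0.69 without AMPK KO replicate 2 and to 0.36 without WT replicate 2. Eif4enif1, the transporter that takes eIF4E to the nucleus and to P-bodies, had 5.05, 4.83 and 4.74 in WT and 4.49, 4.37 and 4.34 in AMPK KO. These did not overlap (-0.48 ± 0.22, SE, limma adjusted p = 0.224), and Eif4ebp3 had a fold change of -0.43 with overlap.

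Eif5a, the hypusine-carrying factor that helps ribosomes past difficult peptide bonds, had values of 7.04, 7.50 and 7.31 in WT and 7.65, 7.66 and 7.70 in AMPK KO. The AMPK KO samples lay within 0.1 of each other and above every WT sample, with a log2 fold change of 0.39 ± 0.15 (SE, limma adjusted p = 0.15). Eif6, which keeps the large ribosomal subunit from joining too early, had 5.82, 5.79 and 5.55 in WT and 5.62, 5.82 and 5.87 in AMPK KO. Its fold change of 0.05 (adjusted p = 0.9) turned to -0.02 when scaled to the reads outside Rn45s. Eif5a2 had 2 to 33 reads per library and a fold change of 0.40 with overlapping groups.

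The genes listed as elongation factors, with Eef1e1 of the aminoacyl-tRNA synthetase complex among them, had higher means in AMPK KO in 6 of 6 tested. None passed the threshold, and Eef2 turned to -0.04 with the scaling outside Rn45s and to -0.26 after quantile normalization. Eef1a1, the tRNA-delivering GTPase, had values of 9.16, 10.73 and 9.22 in WT and 11.21, 9.93 and 11.44 in AMPK KO. As for Eif4a1, WT replicate 2 lay above AMPK KO replicate 2, and the log2 fold change of 1.15 ± 0.39 had an adjusted p of 0.0967 (SE, limma). It was 0.00916 without WT replicate 2 and 0.00206 without AMPK KO replicate 2, the only 2 of the 15 alternatives in which it passed, and reached 0.421 with a robust estimate of the spread. Eef1a1 has 8 annotated near-identical copies of parts of its transcript elsewhere in the genome, although none of its last 300 bases, which are those nearest to the reads.

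The eEF1B complex reloads eEF1A with GTP. Its subunit gene Eef1b2 had values of 10.74, 10.76 and 10.65 in WT and 10.88, 11.07 and 10.92 in AMPK KO, without overlap (log2 fold change 0.24, limma adjusted p = 0.355). Eef1d had 7.46, 7.48 and 7.73 in WT and 7.90, 8.49 and 7.83 in AMPK KO. The groups were apart, with AMPK KO replicate 2 highest (0.52 ± 0.17, adjusted p = 0.0998; 0.0277 with the GC correction). Eef1g had 8.55, 8.24 and 8.45 in WT and 8.45, 8.85 and 8.51 in AMPK KO and overlapped (0.19, adjusted p = 0.498). Eef1e1, which belongs to the aminoacyl-tRNA synthetase complex, had no overlap at 51 to 157 reads (0.58, adjusted p = 0.346).

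Eef2 and its kinase are the step of elongation closest to AMPK signalling. Eef2 had log2 values of 11.77, 11.57 and 11.76 in WT and 11.59, 11.93 and 11.68 in AMPK KO, so that the groups overlapped, with AMPK KO replicate 2 above every WT sample. The log2 fold change was 0.03 ± 0.16 (SE, limma adjusted p = 0.938) on 30492 to 41981 reads. Eef2k had 1.71, 2.63 and 2.66 in WT and 3.37, 3.08 and 3.17 in AMPK KO. Every AMPK KO sample was above every WT sample, WT replicate 1 being the lowest, but the difference of 0.87 ± 0.37 rested on 21 to 111 reads per library and was not past the threshold (SE, limma adjusted p = 0.19). Eef2kmt, a methyltransferase of eEF2, had a fold change of 0.14 with overlap.

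The samples of each group differed from one another in a shared way. WT replicate 2 and AMPK KO replicates 1 and 3 were high within their groups for Eef1a1, Eif4a1, Eif2s3x, Eif3m and Eif4ebp2, and WT replicates 1 and 3 and AMPK KO replicate 2 were low. After the group mean was taken from each value, the correlation across the 57 genes, which are not independent and share their libraries, was 0.74 between WT replicate 2 and AMPK KO replicate 3 and -0.70 between WT replicate 2 and AMPK KO replicate 2. Across all genes tested the same pairs gave 0.24 and -0.32. The SD within groups was 0.85 for Eef1a1 and 0.69 for Eif4a1, against 0.06 for Eif4g2 and Eif4b. The GC content of the last 500 bases correlated with these deviations at -0.25 in WT replicate 2 and 0.29 in AMPK KO replicate 2 across the 57 genes, and at -0.10 with the fold change, and its part was not tested beyond the GC correction given with the alternatives.

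**Figure D4:**
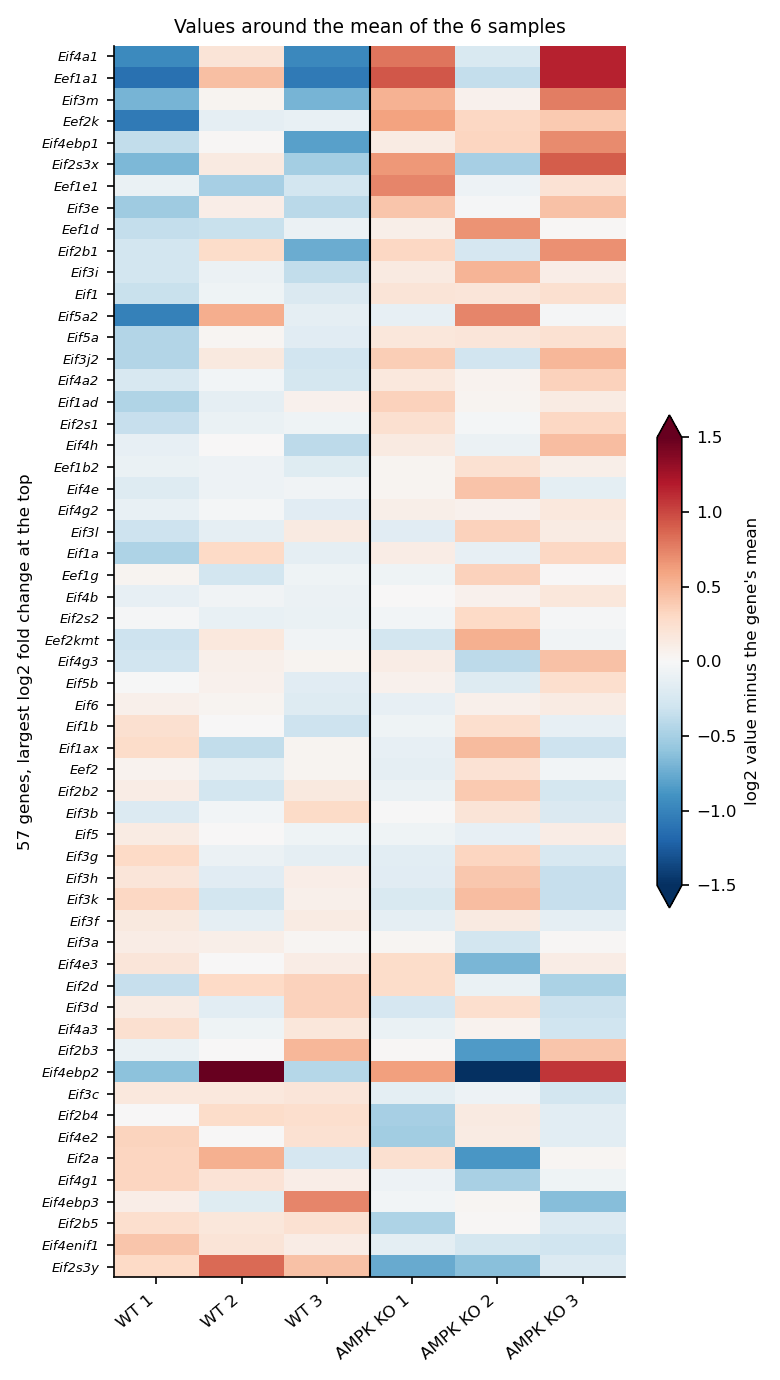
Log2 value of each of the 57 tested genes in each sample minus the gene's mean over the 6 samples (colour), ordered by log2 fold change from Eif4a1 (1.16) to Eif2s3y (-1.06). WT replicate 2 and AMPK KO replicate 2 stand apart from the other samples of their groups for Eif4a1, Eef1a1, Eif2s3x and Eif4ebp2.

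Ribosomal protein genes, whose products build the ribosome itself, were set beside the factors. Of 81 tested, 70 had a higher mean in AMPK KO and their median log2 fold change was 0.23, against 0.11 for the factors. The limma threshold was passed by 9 of the ribosomal protein genes as higher and by 0 as lower, against 2.54% and 3.1% of all genes tested. The shares of genes with a higher mean were 86.4% and 61.4%, given as a description, since genes of 1 library are not replicates.

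**Figure D5:**
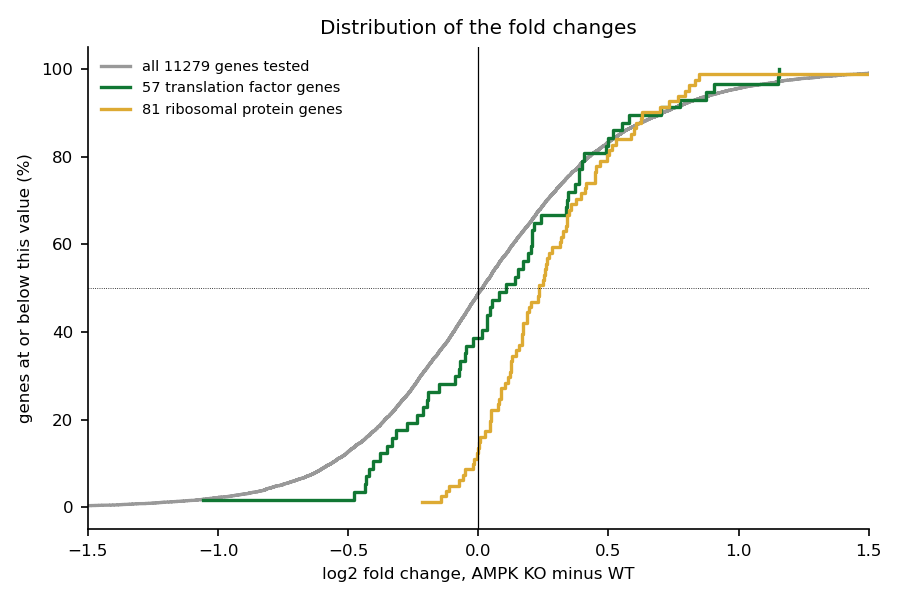
Cumulative share (percent) of genes at or below each log2 fold change, AMPK KO minus WT, for all 11279 genes tested, the 57 translation factor genes and the 81 ribosomal protein genes. The curves cross 50% at medians of 0.015, 0.108 and 0.234, and the horizontal axis is limited to 1.5 on each side.

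Genes that act on or beside the factors were taken from lists of 54 genes, of which 50 were tested, 23 with a higher and 27 with a lower mean, and 1 rose and 3 fell past the threshold, against 2.54% and 3.1% of all genes tested. Mknk2, a kinase of eIF4E, had values of 7.07, 7.08 and 7.21 in WT and 7.73, 7.64 and 7.68 in AMPK KO, and rose by 0.56 (limma adjusted p = 0.0277). It did not pass with any 1 library left out except AMPK KO replicate 2, the adjusted p being 0.132, 0.052 and 0.0997 without WT replicates 1, 2 and 3, and 0.137 and 0.0604 without AMPK KO replicates 1 and 3. Pdcd4, an inhibitor of the eIF4A helicase, had 8.10, 7.86 and 8.12 in WT and 7.35, 7.16 and 7.21 in AMPK KO. It fell by 0.78 on the log2 scale (adjusted p = 0.00593), with 0.0656 and 0.0659 without WT replicates 1 and 3. Ncbp1, of the nuclear cap-binding complex, had 6.99, 6.75 and 6.67 in WT and 6.06, 6.08 and 6.11 in AMPK KO and fell by 0.72 (adjusted p = 0.0168). Without WT replicate 1, WT replicate 3 or AMPK KO replicate 1 its adjusted p was 0.114, 0.0666 and 0.0909. Snora81, described above with Eif4a2, was the other gene that fell, with 830 to 4686 reads.

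Of the 12 poly(A) and cap-side partners tested, Ncbp1 and Pdcd4 fell and the list's median was -0.07. Of 13 modifying enzymes Mknk2 rose, and the median was -0.02. The 7 genes of the eIF2 alpha kinases, their phosphatase and Atf4, the transcription factor whose translation rises when eIF2 is phosphorylated, included none past the threshold. Atf4 had values of 10.09, 9.84 and 10.09 in WT and 10.39, 10.83 and 10.42 in AMPK KO, without overlap, and a log2 fold change of 0.54 ± 0.16 (SE, limma adjusted p = 0.0574). Eif2ak3, the kinase of endoplasmic reticulum stress, had a fold change of -0.72 with overlapping groups (adjusted p = 0.16).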

How the data were processed

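CD4 T cell RNA of 3 WT and 3 AMPK KO samples was read with a 3′ QuantSeq kit from 500 ng total RNA. The authors deposited log2 values, log2 of the TMM-normalised CPM plus 1, for 23282 lines per sample. The submitters' processing notes name Bowtie2, bedtools and mm10, without versions, and strand and multi-mapping settings are not given in the sources used here. Up to 100 reads, 100% of values lay within 0.1 of a whole read, so reads per gene and depths were recovered. Depth (9574902 to 11185396 reads) limits genes of few reads most.

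Lines with a mean of at least 1 (11279) were fitted with limma 3.58.1 (R 4.3.3; lmFit, eBayes with trend), genotype as the only term, two-sided, with Benjamini-Hochberg adjustment over all of them and a threshold of 0.05. Alternatives were other scalings, filters, pseudocounts and tests, each sample left out, and, chosen after seeing the data, a loess GC correction. The genes and lists were chosen with earlier results of these data known. Named genes were those past the threshold, the 3 largest rises and falls among genes above the median level, genes fixed by role, and genes of the surrounding lists past the threshold. Eif1, Eif3a, Eif3c, Eif3e, Eif3i, Eif4g2, Eif4b, Eef1e1, Atf4, Eif2ak3, Gspt2 and Tufm were added after their values were seen, and other genes are given by range or by fold change alone, for completeness of their role. Positions and near copies (blastn 2.17.0, at least 95% identity over 200 of the last 300 bases, or over 300 bases anywhere) are from GENCODE M21 on GRCm38, and start windows from RefSeq on GRCm38.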

Additional observations from a re-analysis of the deposited data

How the results depend on the processing

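Depth limits the genes of few reads most, such as Eef2k (21 to 111 reads per library) and Eif4ebp1 (30 to 138), whose standard errors were 0.37 and 0.35 on the log2 scale. The median log2 fold change of the factors stayed positive in the 15 alternatives tried, from 0.04 (scaled to reads outside Rn45s) to 0.141 (without WT replicate 3). The number of factors past the threshold, 2 as reported, was 4 after quantile normalization, 1 when scaled to reads outside Rn45s, 0 with no filter (15930 lines with at least 1 read tested, 1.93% of which passed) and 4 with the GC correction (7.27% of all genes passed). It stayed at 2 with a filter at a mean of 3, a pseudocount of 0.25, a robust spread and limma voom on recovered reads. Leaving out 1 library gave 0 to 8, while the share of all genes past the threshold ran from 1.12% to 11%, and the number of factors whose groups do not overlap, 19 as reported, ran from 20 to 34, while that share of all genes, 25.6% as reported, ran from 31.5% to 42.8%. Eif3m passed in 8 of the 15 alternatives and Eif2s3y in 9, both with their direction kept. The fold change of Eef2 turned to -0.256 (quantile) and -0.038 (outside Rn45s), that of Eif6 to -0.016 and that of Eif1ax to -0.035 (both outside Rn45s). With 1 library left out, that of Eef2 ran from -0.068 to 0.104 (-0.032 without WT replicate 2), that of Eif6 from -0.033 to 0.128, that of Eif1ax from -0.198 to 0.195 (-0.141 without WT replicate 2) and that of Eif4ebp2 from -0.934 to 0.685 (0.361 without WT replicate 2). The cause was not tested.

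Same-numbered samples did not deviate together (correlations -0.08, -0.32 and -0.16 over all genes, and no sample correlated best with its own number). With 3 samples per group, these correlations cannot decide whether the numbers pair the samples. With the replicate block, 0 factors and 102 genes in all passed the threshold, against 2 and 637 without it, and the adjusted p was 0.156 for Eif3m and 0.108 for Eif2s3y.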

Other observations

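Factors of translation termination and of mitochondrial translation were measured beside the cytosolic factors. Of 6 termination and recycling genes tested, 3 had a higher and 3 a lower mean in AMPK KO, and none passed the limma threshold, 1 having an unadjusted p under 0.05, against 21.3% of all genes. Gspt2, a release factor GTPase, had log2 values of 3.35, 2.81 and 3.14 in WT and 1.56, 1.47 and 2.51 in AMPK KO, on 19 to 85 reads. All AMPK KO samples were below all WT samples, with a log2 fold change of -1.25 ± 0.40 (SE, limma adjusted p = 0.0794). Of 9 mitochondrial translation factors tested, 5 had a higher mean and none passed, 1 having an unadjusted p under 0.05, also against 21.3%. Tufm, the mitochondrial counterpart of eEF1A, had 2.87, 2.54 and 2.21 in WT and 3.81, 3.74 and 2.996 in AMPK KO. These did not overlap on 32 to 154 reads (0.98 ± 0.36, adjusted p = 0.126). Of 7 listed small nucleolar RNAs within translation factor genes, 4 had at most 49 reads in any library and were not tested. Of the 3 tested Snora81 passed, while Snord2 and Snord37 had fold changes of 0.28 and 0.70 with overlapping groups.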
